A study of Rattus norvegicus with 9 samples.

Results

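The genes described here encode the voltage-gated sodium channels, the voltage-gated calcium channels, the HCN channels and the TRP channels of the rat vestibular epithelium. They were chosen by symbol: every protein-coding gene named Scn with a digit, Cacn, Hcn with a digit, or Trpa, Trpc, Trpm or Trpv with a digit, with at least 10 counts in total over the 9 libraries. The calcium channel subunits Cacna1d and Cacnb2 were left out of the rule and appear below only among the partner genes. Of 68 matching symbols, 56 met the rule, out of 32883 genes in the count table, and 51 of them had enough counts to be tested. One of these, Trpc4ap, carries a TRP symbol but encodes a protein associated with TRPC4 and not a channel.

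Bulk RNA from 9 male Long-Evans rats was sequenced, with the utricles and cristae of each animal pooled into 1 sample. Control rats (n = 3) drank plain water. The IDPN3w and IDPN7w rats (n = 3 each) drank water holding 20 mM of the ototoxic nitrile 3,3'-iminodipropionitrile (IDPN), over 3 and 7 weeks respectively. The control group was shared by both comparisons and included animals killed at each time point, with no label saying which, so that the age at death could not enter the fit. The sample titles carry an animal code whose first part is the same in all 3 Control rats and in no treated rat, so that whatever it marks, which is not given, cannot be told apart from the group. The shorter exposure was meant to catch an early step of hair cell detachment and the longer one the onset of hair cell extrusion.

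Voltage-gated sodium and calcium channels have a large pore-forming subunit that opens when the membrane depolarises, and auxiliary subunits (the beta subunits of both, and the alpha2delta and gamma subunits of calcium channels) that set how much channel reaches the membrane and how it gates. HCN channels open on hyperpolarisation and carry a mixed sodium and potassium current that sets the resting potential and speed of hair cells and of the calyx afferents around them. TRP channels are cation channels opened by ligands, temperature, osmotic stress or intracellular calcium. In the vestibular organs, calcium entry through voltage-gated channels drives transmitter release from hair cells, and sodium channels fire the afferent neurons, while many TRP channels are found in supporting, dark and immune cells.

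The promoter sequences of 2 of the 3 genes whose levels fell at 7 weeks (described below) are shown first, since these are the genes on which the comparison with controls turns. Of the 56 genes, 39 matched a RefSeq promoter entry (build GRCr8, 250 bases before to 50 after the start site). Capitals mark matches, on either strand, to the TATA box TATAAA, the CCAAT box CCAAT, the GC box GGGCGG or the E-box CAGCTG. The first of 3 listed start sites of Cacna2d1 lies on the minus strand at chr4:20330098-20330397, and that of Scn7a lies on the minus strand at chr3:71846235-71846534.
Cacna2d1: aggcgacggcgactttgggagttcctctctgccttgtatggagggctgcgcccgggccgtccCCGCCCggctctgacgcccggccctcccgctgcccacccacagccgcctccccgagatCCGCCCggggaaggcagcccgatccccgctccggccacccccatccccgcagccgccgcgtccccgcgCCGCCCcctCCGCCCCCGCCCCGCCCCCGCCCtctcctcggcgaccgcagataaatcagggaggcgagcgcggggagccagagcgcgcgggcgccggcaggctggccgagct
Scn7a: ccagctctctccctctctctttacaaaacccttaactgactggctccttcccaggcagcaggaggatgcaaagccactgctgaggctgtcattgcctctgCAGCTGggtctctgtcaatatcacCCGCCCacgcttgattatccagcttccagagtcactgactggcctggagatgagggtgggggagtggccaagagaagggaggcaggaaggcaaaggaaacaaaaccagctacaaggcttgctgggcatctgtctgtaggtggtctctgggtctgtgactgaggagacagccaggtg
The Cacna2d1 window was 78.3% G or C and held 7 GC box matches, 2 of which share a base, and no match to the other motifs. In the Scn7a window, which was 56% G or C, there was 1 GC box match and 1 E-box match. Of all 33469 promoter windows, 33.1% held a GC box, 15.1% this E-box, 37.5% a CCAAT box and 14.2% a TATA box. Among the 44 windows of the channel genes the shares were 40.9%, 27.3%, 22.7% and 6.82%. These are matches of letters and not sites shown to be used.

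Library totals ran from 31100118 to 46018385 counts. The libraries fell into 2 sets that follow the groups only in part. At equal depth, Control 3, IDPN3w 1 and IDPN3w 2 had 15387 to 15498 genes detected against 16834 to 17312 in the other 6. The channel genes moved with this split. A count was found for 41 to 43 of the 56 in these 3 libraries and for 50 to 54 in the others, and with a single exception (Cacna1e in IDPN3w 1) the genes at 0 had a mean under 5 CPM (counts scaled to TMM library sizes). All the IDPN7w libraries belong to the larger set and only 1 IDPN3w library does, so that values within a set are given below beside the main results. These are descriptions with few animals: at 3 weeks the smaller set compares 2 IDPN3w animals with 1 control and the larger set 1 IDPN3w animal with 2 controls, and at 7 weeks only the larger set gives a value, from 3 IDPN7w animals and 2 controls. The tissue was checked by markers. All 14 hair cell markers, 14 supporting cell markers and 8 Schwann cell markers listed for this purpose had enough counts to be tested. The groups differed in them: 4 hair cell markers were lower in IDPN3w and 8 in IDPN7w, with none higher (edgeR, by the thresholds given below). The summed hair cell marker level was 2327 to 2788 CPM in Control, 1093 to 1462 in IDPN3w and 1116 to 1242 in IDPN7w. In bulk tissue, fewer cells of a type and less RNA per cell cannot be told apart.

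**Figure D1:**
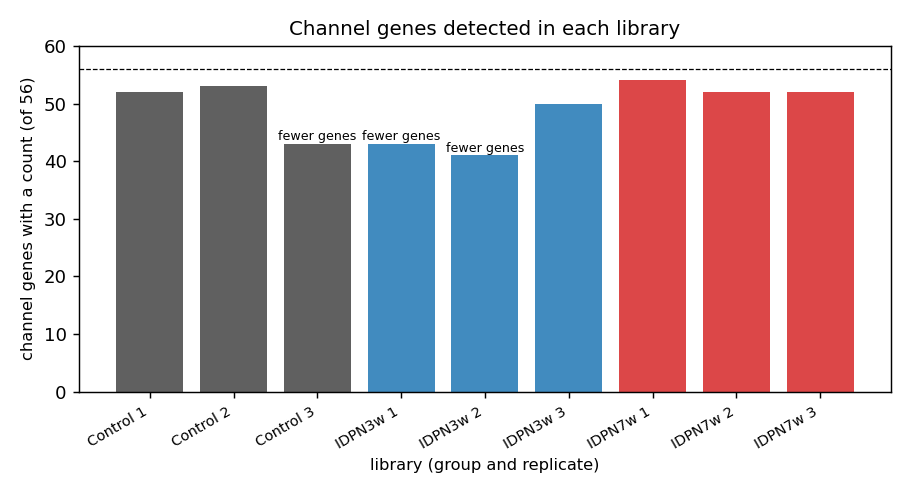
Number of the 56 channel genes with at least 1 estimated count in each library (bars), by group. The dashed line is at 56. Control 3, IDPN3w 1 and IDPN3w 2, the libraries with fewer genes detected, had 41 to 43 channel genes with a count and the other 6 libraries 50 to 54.

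Taken as one sum, the channel genes had lower levels after IDPN. Their summed level was 802, 749 and 744 CPM in the 3 Control libraries, 603.1, 590.0 and 543.5 in IDPN3w and 556, 638 and 584 in IDPN7w, with no overlap between treated and control animals. They took 0.0695 to 0.0782% of all counts in Control and 0.0541 to 0.0674% in the treated libraries. A few genes carry this sum. Trpm3 alone held 18.5 to 31.6% of the channel counts of a library. Of the 51 genes tested, 28 had a log2 fold change below 0 and 23 above, in each comparison with controls. The sum therefore cannot be read as a common change of the family. Counts were also not divided by transcript length.

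After 3 weeks no channel gene passed the test. Of the 51 tested, 0 were called lower and 0 higher (edgeR quasi-likelihood test with Benjamini-Hochberg adjustment over the 15517 genes tested, at a threshold of 0.05 together with a change of more than 1.5-fold), where 1.21% of all genes were called lower and 0.438% higher. Unadjusted p was under 0.05 for 10 channel genes (19.6%), 8 of them lower, against 15.8% of all genes. All 3 treated animals were below every control for 8 genes (15.7%) and above for 5 (9.8%), against 10.9% and 8.78% of all genes. The median log2 fold change was -0.11, and that of all genes tested -0.000467. DESeq2 with the same thresholds called 6 channel genes, Cacna2d1, Cacna2d3, Scn7a and Trpm3 lower and Cacnb3 and Scn2a higher.

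After 7 weeks Cacna2d1 and Scn7a were among the genes lower than in controls. In all, 3 genes (5.88%) were called lower and 0 higher, where 3.13% of all genes were called lower and 2.00% higher. Unadjusted p was under 0.05 for 12 channel genes (23.5%), 9 lower and 3 higher, against 19.3% of all genes. The groups did not overlap for 14 lower (27.5%) and 7 higher (13.7%), against 17.1% and 17.2% of all genes. The median log2 fold change was -0.15, and that of all genes tested 0.00970. DESeq2 called the same 3 and also Trpv1 lower and Trpm4 and Trpv4 higher. Without the 3 libraries with fewer genes detected, a choice made after seeing the data, 9 genes were called, with Cacna2d1, Scn7a, Cacna1e, Cacng4 and Trpv1 among the 6 lower, and Trpm4, Trpv4 and Cacnb1 the 3 higher. The count also rests on single animals: it fell to 0 without IDPN7w replicate 1 or 3, to Cacna2d1 alone without Control replicate 1 or 2, and to 2, with neither Cacna2d1 nor Scn7a, without Control replicate 3, while without IDPN3w replicate 2 it was 5. The share wholly below the controls was above that of all genes and the share wholly above them was below it. No change of the channels as a class is read from these shares.

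Between 3 and 7 weeks 0 channel genes were called in either direction (edgeR), where 0.135% of all genes were lower and 0.348% higher in IDPN7w. For 9 genes (17.6%) unadjusted p was under 0.05, against 13.8% of all genes. The groups did not overlap for 6 lower (11.8%) and 6 higher (11.8%), against 8.92% and 12.1%. DESeq2 called 2 genes lower at 7 weeks than at 3, one of them Trpv1.

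**Figure D2:**
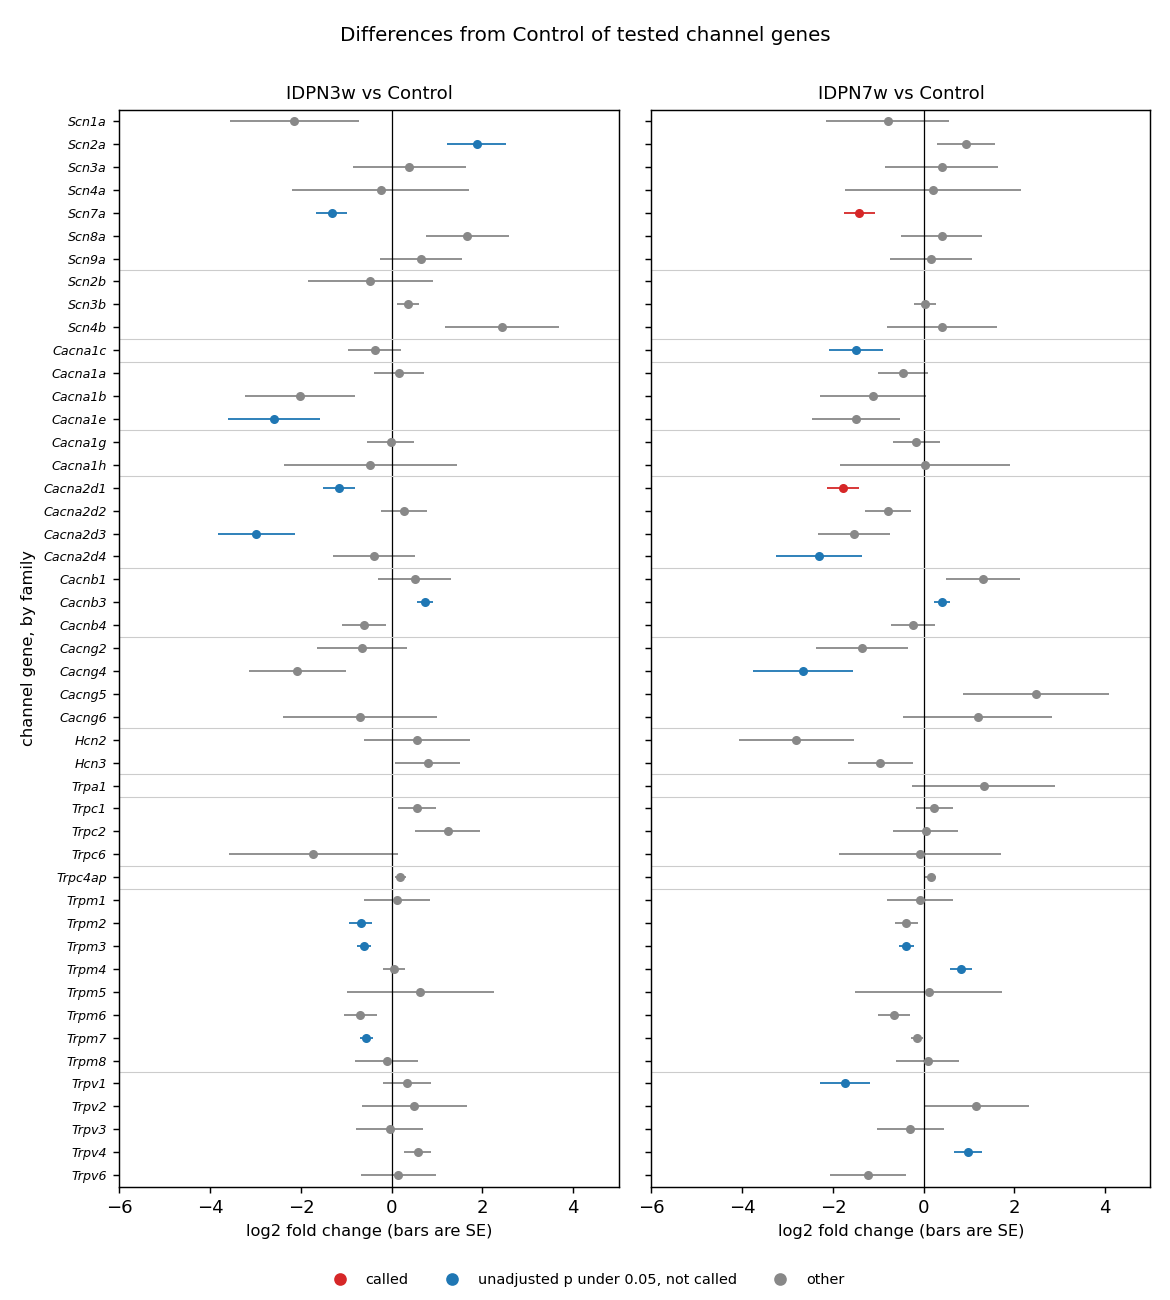
Log2 fold change from Control (horizontal axis, bars are the SE of the edgeR fit) of 47 of the channel genes tested, grouped by family, in IDPN3w (left) and IDPN7w (right). Red marks called genes, here Cacna2d1 and Scn7a at 7 weeks, and blue an unadjusted p under 0.05. Genes with 3 or fewer counts in a group (Trpa1 and Cacng5 at 3 weeks, Scn2b at 7 weeks) are not drawn.

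Among the sodium channel pore subunits, Scn7a fell. Scn7a (ENSRNOG00000029342) encodes Nax, a channel that senses extracellular sodium and is found in glia, Schwann cells and some epithelia and neurons. Its level was 70.9, 73.1 and 49.97 CPM in Control, 15.5, 34.2 and 27.8 in IDPN3w and 13.7, 27.0 and 32.0 in IDPN7w. Every treated animal was below every control at both times. The log2 fold change was -1.42 at 7 weeks (SE 0.349, adjusted p = 0.0412, edgeR), a 2.67-fold lower level. At 3 weeks it was -1.33 (SE 0.349, adjusted p = 0.0957), which did not pass, while DESeq2 gave an adjusted p of 0.00421. On the log2(CPM + 2) scale, the difference at 7 weeks within the set of libraries with more genes was -1.57. At 3 weeks it was -1.05 within the smaller set and -1.31 within the larger. Leaving out any one of the Control or IDPN7w libraries, or IDPN3w replicate 3, raised the adjusted p at 7 weeks to between 0.0559 and 0.128. Of 8 Schwann cell markers, 3 (Mbp, Ncmap and Pmp22) were called lower at 7 weeks and 0 at 3 weeks, and their summed level was 9152 to 11571 CPM in Control, 7184 to 9882 in IDPN3w and 3281 to 6730 in IDPN7w. Their part in the Scn7a result was not tested.

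The other 7 sodium channel pore subunits had means between 0.571 and 2.45 CPM over all libraries and none passed the test. Scn2a, a neuronal sodium channel of axons, was at 0.701, 0.877 and 0.591 CPM in Control, 2.07, 3.23 and 2.64 in IDPN3w and 1.08, 0.720 and 2.35 in IDPN7w. All IDPN3w animals were above all controls, with a log2 fold change of 1.87 (SE 0.654, adjusted p = 0.196 by edgeR and 0.0457 by DESeq2). The IDPN7w animals overlapped the controls. Scn1a, another neuronal channel, split by library set and not by group: it was at 0.0545 to 0.236 CPM in the 3 libraries with fewer genes and at 0.652 to 6.39 in the other 6. Scn8a, Scn3a and Scn9a, which carry sodium current in neurons, also spread widely within groups. Scn8a was at 2.00, 1.82 and 0.197 CPM in Control, 2.59, 8.65 and 1.54 in IDPN3w and 0.835, 2.16 and 2.304 in IDPN7w. Scn4a, the sodium channel of skeletal muscle, was at 0 in the 3 libraries with fewer genes and at 0.103 to 1.45 CPM in the others. In RefSeq, Scn9a lies between Scn1a and Scn7a, and Scn3a beside Scn2a, and these neighbouring family members have similar sequence, so that how reads were split between them is uncertain.

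Of the 4 sodium channel beta subunits, which modulate gating and act in cell adhesion, Scn3b overlapped between all groups, at 16.3, 15.8 and 12.0 CPM in Control, 26.1, 15.2 and 15.5 in IDPN3w and 15.8, 15.7 and 13.6 in IDPN7w (log2 fold change 0.03 at 7 weeks, 95% interval -0.57 to 0.63). Scn4b was above every control in all 3 IDPN3w animals, at 0.971, 0.376 and 0 CPM in Control, 4.63, 1.48 and 1.199 in IDPN3w and 0.469, 0.308 and 1.01 in IDPN7w, with adjusted p = 0.387 at 3 weeks. Scn2b was near the limit of detection. It had 42 counts in all in the Control libraries, 31 in IDPN3w and 2 in IDPN7w, a ratio of IDPN7w to Control of 0.0363 (95% interval 0.00425 to 0.139, counting error only). The edgeR adjusted p was 0.163.

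The pore-forming calcium channel genes summed to lower levels in treated animals, but no single one passed the test. Summed over 7 genes, the level was 36.6, 28.7 and 26.9 CPM in Control, 14.7, 23.7 and 17.4 in IDPN3w and 11.5, 19.3 and 12.9 in IDPN7w, without overlap. Of the 6 tested, only 1, Cacna1e, lay below all controls by itself at 3 weeks, and the same held at 7 weeks. The sum is therefore not read as a joint fall of these genes. Cacna1e, the R-type channel subunit, was at 8.49, 10.2 and 10.9 CPM in Control, 0, 3.13 and 1.78 in IDPN3w and 3.10, 3.47 and 3.98 in IDPN7w. Control values were close together and all above the treated ones. Its log2 fold change was -2.59 at 3 weeks (SE 1.02, adjusted p = 0.252) and -1.49 at 7 weeks (SE 0.971, adjusted p = 0.471). One library decided the call: without IDPN3w replicate 1, which had no count, the difference at 3 weeks was -2.00 and the adjusted p 0.0345, in a range of 0.0271 to 0.436 over the alternatives. Without the 3 libraries with fewer genes, Cacna1e was called at 7 weeks. The fit also called it at 3 weeks, but from 1 IDPN3w animal, assumed to vary like the other groups. Cacna1c, an L-type channel of muscle, neurons and many epithelia, was at 20.1, 10.2 and 4.47 CPM in Control and 2.18, 7.13 and 3.01 in IDPN7w. These ranges overlap, with a log2 fold change of -1.496 (SE 0.594, adjusted p = 0.200). In IDPN3w it was at 6.10, 13.1 and 7.72 CPM. Cacna1c overlaps Dcp1b in RefSeq, so that without strand their reads could not be told apart.

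Cacna1a, Cacna1b, Cacna1g and Cacna1h, the P/Q-type, N-type and 2 T-type channel subunits, had adjusted p of 0.457 or more in both comparisons with controls. Cacna1a was at 3.18, 1.63 and 5.57 CPM in Control, 3.60, 5.66 and 2.34 in IDPN3w and 1.69, 2.59 and 3.29 in IDPN7w. Cacna1g was at 2.99, 5.36 and 2.19 CPM in Control, 4.55, 1.85 and 3.94 in IDPN3w and 3.73, 3.70 and 2.00 in IDPN7w. These values overlap, and its log2 fold change at 7 weeks was -0.16 (95% interval -1.42 to 1.101). Cacna1h was at 0 in both IDPN3w libraries with fewer genes and in IDPN7w replicate 1, and at 0.822 CPM or less in the others. Cacna1s, the skeletal muscle calcium channel, was untested: it had 11 counts, all of them in IDPN7w replicate 1.

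The alpha2delta subunits, which carry calcium channels to the membrane, include Cacna2d1, the channel gene with the lowest adjusted p at 7 weeks. Cacna2d1 (ENSRNOG00000033531), which binds the drug gabapentin, was at 84.7, 64.6 and 119.7 CPM in Control, 24.6, 57.2 and 38.4 in IDPN3w and 20.0, 37.4 and 20.9 in IDPN7w. All 6 treated animals were below all 3 controls. The log2 fold change was -1.78 at 7 weeks (SE 0.355, adjusted p = 0.0159, edgeR), or 3.43-fold lower. At 3 weeks it was -1.16 (SE 0.349, adjusted p = 0.137, and 0.0146 by DESeq2). Its difference at 7 weeks within the larger library set was -1.49 on the log2(CPM + 2) scale, and at 3 weeks -1.62 within the smaller set and -0.91 within the larger. Without Control replicate 3, the highest library, the adjusted p at 7 weeks was 0.0564, and without IDPN7w replicate 1 or 3 it was 0.0791 or 0.0768. The difference between 3 and 7 weeks, -0.62, did not pass (adjusted p = 0.482).

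Cacna2d3 lay below the controls only at 3 weeks and Cacna2d4 only at 7 weeks, and neither passed the edgeR test. Cacna2d3, a neuronal alpha2delta subunit, was at 2.91, 4.86 and 11.1 CPM in Control, 1.25, 0.168 and 0.953 in IDPN3w and 0.774, 2.98 and 2.73 in IDPN7w. The IDPN3w animals were all below the controls, with a log2 fold change of -2.98 (SE 0.841, adjusted p = 0.114, and 0.00594 by DESeq2). Cacna2d4, the subunit known from photoreceptor synapses, was at 0.998, 1.72 and 1.13 CPM in Control and 0.163, 0.226 and 0.380 in IDPN7w, with a log2 fold change of -2.31 (SE 0.949, adjusted p = 0.214). The IDPN3w values, 0.654, 2.02 and 0.246 CPM, overlapped the controls (log2 fold change -0.40). In RefSeq Cacna2d4 overlaps the genes Lrtm2 and Adipor2, whose reads could not be told apart without strand. The authors list Lrtm2 among the genes lower in all of their comparisons, and its part in the Cacna2d4 values was not tested. Cacna2d3 overlaps Lrtm1. Cacna2d2 was at 4.99, 6.80 and 9.26 CPM in Control, 4.17, 16.5 and 4.92 in IDPN3w and 4.54, 4.38 and 3.29 in IDPN7w, where all animals were below the controls (adjusted p = 0.469).

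Among the calcium channel beta subunits, which help the pore subunit reach the membrane, Cacnb3 had higher levels after treatment without passing the edgeR test. It was at 27.8, 23.3 and 25.6 CPM in Control, 39.4, 53.3 and 35.1 in IDPN3w and 32.6, 37.7 and 31.9 in IDPN7w. Each treated animal was above each control. The log2 fold change was 0.74 at 3 weeks (SE 0.177, adjusted p = 0.0725, and 0.00465 by DESeq2) and 0.41 at 7 weeks (SE 0.176, adjusted p = 0.231). At 3 weeks the difference was 0.79 within the smaller library set and 0.43 within the larger. Cacnb3 overlaps Tuba1c in RefSeq. Cacnb1 was at 1.11 to 1.69 CPM in Control and 3.08 to 4.15 in IDPN7w without overlap (adjusted p = 0.444), and it overlaps the ribosomal protein gene Rpl19. Cacnb4 was at 8.85, 7.71 and 15.7 CPM in Control, 7.77, 2.42 and 10.9 in IDPN3w and 7.41, 10.3 and 9.82 in IDPN7w, with overlap between all groups.

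Of the gamma subunits, most of which act as auxiliary proteins of AMPA receptors, Cacng4 carried most of the counts. It was at 6.07, 6.67 and 6.95 CPM in Control, 2.64, 0 and 2.00 in IDPN3w and 0.509, 1.17 and 1.42 in IDPN7w. The control values lay close together and above every treated value. Its log2 fold change was -2.67 at 7 weeks (SE 1.102, adjusted p = 0.218). One library decided this call as well: without IDPN3w replicate 2, which had no count, the adjusted p at 7 weeks was 0.0094, in a range of 0.00505 to 0.533 over the alternatives. Cacng5 had 7 counts in Control, 0 in IDPN3w and 52 in IDPN7w, at least 12.5-fold higher in IDPN7w than in IDPN3w when the IDPN3w group is set at the floor of 3 counts (adjusted p = 0.250). Cacng2 was at 1.65, 1.25 and 0.844 CPM in Control, 1.53, 0.0673 and 0.769 in IDPN3w and 0.469, 0.678 and 0.304 in IDPN7w (adjusted p = 0.535 at 7 weeks). Cacng6 was at 0.452 CPM or less throughout, and Cacng7, with 12 counts in all, was not tested. Skeletal muscle also uses Scn4a and Cacng6, which had adjusted p of 0.781 or more in both comparisons with controls. The summed level of 6 muscle markers was 0.816 to 17.1 CPM in Control, 39.3 to 55.2 in IDPN3w and 143 to 161 in IDPN7w. The myosin gene Myh4 made up nearly all of this sum, since no other marker exceeded 1.09 CPM in any library. Only 2 of the 6 could be tested. Myh4 was called higher at 7 weeks, while Mylpf, at 0.512 CPM or less, went down in both comparisons with controls without being called. The sum is therefore not read as a rise of the muscle markers as a set.

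**Figure D3:**
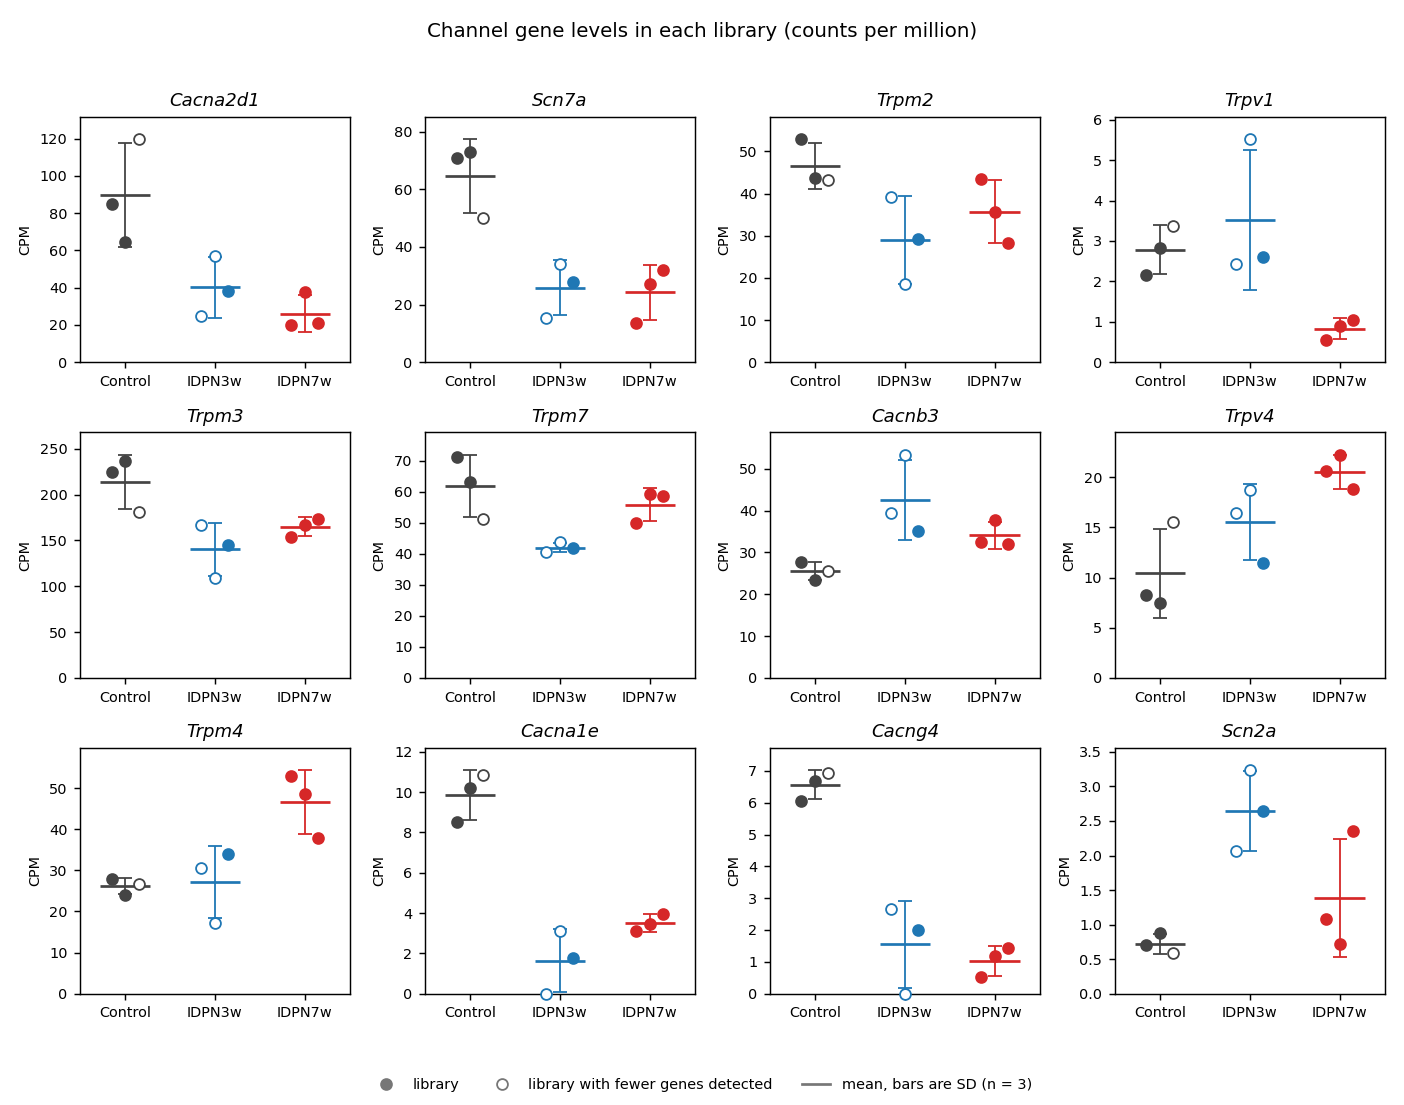
Level in CPM (vertical axis, linear from 0) of 12 channel genes in each library by group. Points are libraries, open where fewer genes were detected, with the mean and SD (n = 3). Cacna2d1, Scn7a, Cacna1e, Cacng4 and Trpm3 are lower in all treated animals than in any control, Trpv1 only in IDPN7w, and Cacnb3 is higher in all treated animals.

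Among the HCN genes, Hcn2 and Hcn3 did not pass the test. Hcn2, the subunit more typical of neurons and heart, was at 0.431, 0.658 and 3.26 CPM in Control, 1.12, 5.15 and 0.154 in IDPN3w and 0.306, 0.206 and 0.101 in IDPN7w. All IDPN7w animals were below all controls (log2 fold change -2.80, SE 1.26, adjusted p = 0.261, edgeR). Within the larger library set that difference was -0.21 on the log2(CPM + 2) scale. The 3 highest values are those of the 3 libraries with fewer genes, and without these libraries the difference between 3 and 7 weeks, -3.36 in the full fit, changed sign to 0.41. That value rests on 1 IDPN3w library with 5 counts. Hcn3 was at 4.02, 5.54 and 0.535 CPM in Control, 5.37, 7.68 and 4.43 in IDPN3w and 1.73, 2.55 and 0.912 in IDPN7w. It was lower in all IDPN7w than in all IDPN3w animals (log2 fold change -1.75, SE 0.734, adjusted p = 0.330) and overlapped the controls. In RefSeq Hcn3 overlaps Pklr. Hcn4, the pacemaker subunit of the heart, was not tested, with 0 counts in Control, 27 in IDPN3w, all in replicate 3, and 29 in IDPN7w.

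TRPM genes took the largest share of the channel counts. Trpm3 encodes a channel opened by heat and the steroid pregnenolone sulphate. Its level was 225, 237 and 181 CPM in Control, 167, 109 and 145 in IDPN3w and 153, 167 and 174 in IDPN7w. Treated animals were all below the controls, with log2 fold changes of -0.61 at 3 weeks (SE 0.156, adjusted p = 0.0867, and 0.00788 by DESeq2) and -0.38 at 7 weeks (SE 0.155, adjusted p = 0.215). The difference at 3 weeks was -0.42 within the smaller library set and -0.67 within the larger. Trpm7, a channel fused to a kinase and needed for magnesium uptake, was at 71.3, 63.1 and 51.2 CPM in Control, 40.6, 43.7 and 41.9 in IDPN3w and 49.9, 59.3 and 58.5 in IDPN7w. The 3-week values formed a narrow band below all others, with a log2 fold change of -0.56 from Control (SE 0.142, adjusted p = 0.0867) and 0.41 from 3 to 7 weeks (SE 0.142, adjusted p = 0.244). Trpm2, opened by ADP-ribose under oxidative stress, was at 52.9, 43.8 and 43.2 CPM in Control, 39.2, 18.5 and 29.2 in IDPN3w and 43.4, 35.5 and 28.3 in IDPN7w. Only the IDPN3w values lay below all controls (log2 fold change at 3 weeks -0.69, SE 0.258, adjusted p = 0.232).

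Trpm4, a channel for sodium and potassium opened by intracellular calcium, was higher after 7 weeks in the DESeq2 test and not in the edgeR test. It was at 27.9, 24.1 and 26.8 CPM in Control, 30.5, 17.2 and 33.9 in IDPN3w and 53.0, 48.7 and 37.9 in IDPN7w. All IDPN7w animals were above all others. The log2 fold change was 0.83 from Control (SE 0.240, adjusted p = 0.0797 by edgeR and 0.0149 by DESeq2) and 0.77 from 3 weeks (SE 0.240, adjusted p = 0.205). Within the larger library set the difference from Control was 0.78. Trpm6, a magnesium channel of epithelia, was at 12.6 to 35.0 CPM in Control, 13.8 to 21.7 in IDPN3w and 15.1 to 20.4 in IDPN7w. Trpm1 (a channel of melanocytes and retinal bipolar cells), Trpm5 (of taste cells) and Trpm8 (opened by cold) had log2 fold changes at 7 weeks between -0.08 and 0.11. The intervals were wide, for Trpm1 -1.87 to 1.70.

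Of the TRPV genes, Trpv4 was at higher and Trpv1 at lower levels after 7 weeks, both short of the threshold. Trpv4, opened by cell swelling and known from hair cells and dark cells, was at 8.31, 7.45 and 15.6 CPM in Control, 16.5, 18.8 and 11.4 in IDPN3w and 20.6, 22.2 and 18.9 in IDPN7w. The IDPN7w values were above all others. The log2 fold change was 0.98 (SE 0.301, adjusted p = 0.0958 by edgeR and 0.0271 by DESeq2). Control replicate 3, of the set with fewer genes, was the highest control: without it the log2 fold change was 1.38 and the adjusted p 0.0189 (0.00161 to 0.259 over the alternatives), and within the larger set the difference was 1.19. Trpv1, the capsaicin and heat receptor of sensory neurons, was at 2.16, 2.82 and 3.38 CPM in Control, 2.43, 5.52 and 2.61 in IDPN3w and 0.550, 0.905 and 1.04 in IDPN7w. Here too the IDPN7w values stood apart, with log2 fold changes of -1.74 from Control (SE 0.550, adjusted p = 0.103 by edgeR and 0.0171 by DESeq2) and -2.08 from 3 weeks (SE 0.555, adjusted p = 0.154 by edgeR and 0.00714 by DESeq2). Trpv2, a channel prominent in macrophages, was at 0.755 to 1.504 CPM in Control and 2.03 to 3.27 in IDPN7w without overlap, with an adjusted p of 0.675. The summed level of the 10 macrophage markers was 72.6 to 114 CPM in Control, 50.9 to 137 in IDPN3w and 216 to 276 in IDPN7w, with 1 of 10, C1qb, called higher. Its part in the Trpv2 values was not tested. Trpv6, a calcium uptake channel of epithelia, was at 0.701 to 1.07 CPM in Control and 0.152 to 0.596 in IDPN7w (adjusted p = 0.497), and Trpv3, a skin heat channel, overlapped in all groups.

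The TRPC genes, whose channels open downstream of phospholipase C, and the irritant receptor gene Trpa1 gave no called change. Trpc1 was at 8.39, 6.55 and 5.54 CPM in Control, 4.91, 17.4 and 7.90 in IDPN3w and 7.56, 7.96 and 8.61 in IDPN7w, with a log2 fold change at 7 weeks of 0.24 (95% interval -0.77 to 1.25). Trpc2 was at 0.836, 0.439 and 0.788 CPM in Control, 2.43, 1.58 and 0.861 in IDPN3w and 0.754, 0.740 and 0.633 in IDPN7w (adjusted p = 0.441 at 3 weeks). In RefSeq Trpc2 overlaps Xndc1, so that without strand their reads could not be told apart. Trpc6 had a mean of 0.463 CPM over all libraries, and Trpc4 and Trpc5 were too low to test. Trpa1 had 18 counts in Control, 0 in IDPN3w and 66 in IDPN7w. Against a floor of 3 counts for the IDPN3w group this is at least 5.68-fold lower in IDPN3w than in Control (adjusted p = 0.292) and at least 15.9-fold higher in IDPN7w than in IDPN3w (adjusted p = 0.252). Of the 18 Control counts of Trpa1, 17 were in Control 2 and 0 in Control 3, also of the set with fewer genes. The 3-week bound therefore rests mostly on 1 control, and the IDPN3w and Control libraries overlap. Without Control replicate 2 the log2 fold change at 3 weeks was -2.38 (adjusted p = 0.678, edgeR). Trpc4ap had the smallest ratio of highest to lowest library among the 56 genes, 1.37, at 69.1 to 74.4, 70.9 to 94.5 and 76.2 to 84.4 CPM in Control, IDPN3w and IDPN7w, with a log2 fold change of 0.16 at 7 weeks (95% interval -0.14 to 0.45).

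**Figure D4:**
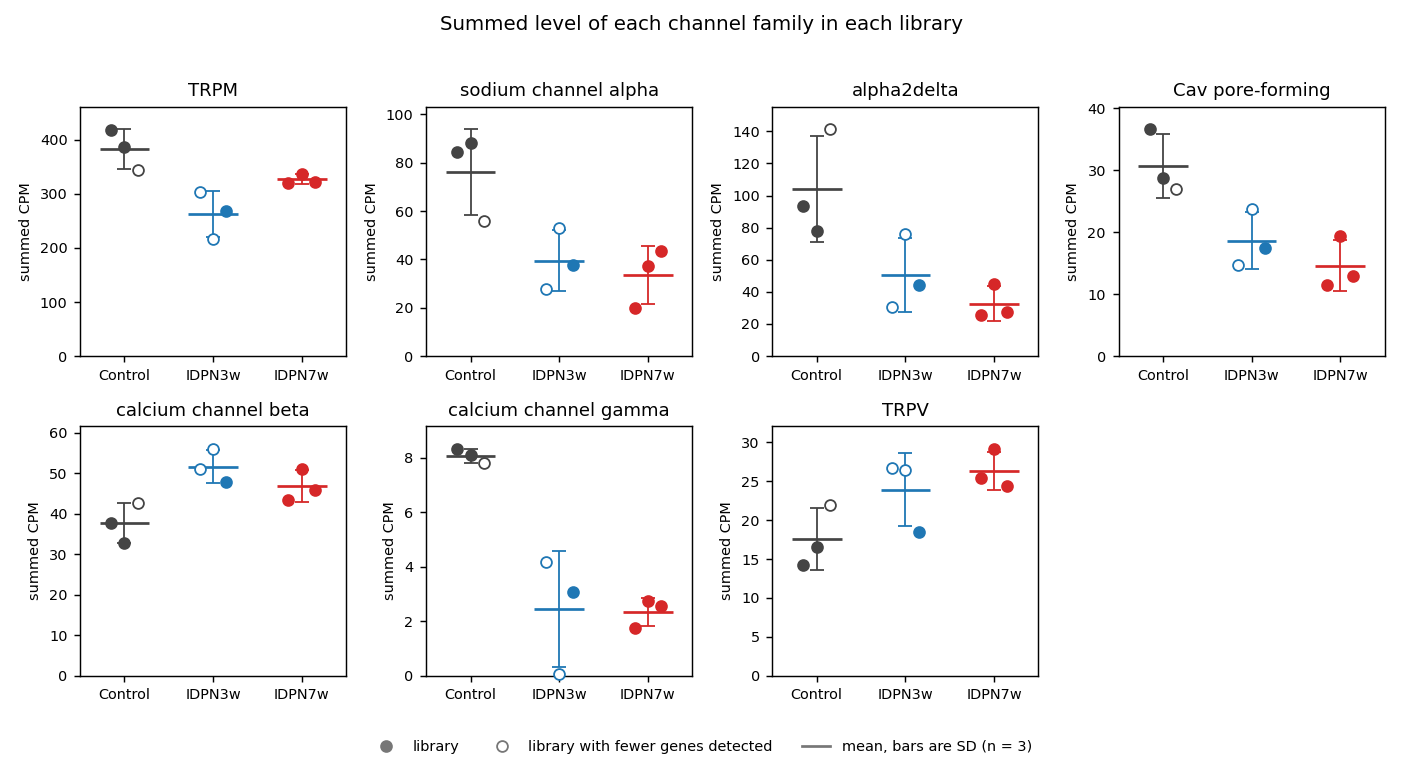
Summed level in CPM (vertical axis, linear from 0) of 7 channel families in each library, with the mean and SD (n = 3), open points marking libraries with fewer genes detected. The TRPM, sodium alpha, alpha2delta, Cav pore-forming and gamma sums are lower in all treated animals than in any control, and the beta sum is higher in all treated animals and the TRPV sum in IDPN7w. Single genes weigh most in these sums, such as Trpm3, Scn7a, Cacna2d1, Cacng4 and Trpv4, so they do not show a change of whole families. The median log2 fold change of the sodium alpha genes was 0.07 at 3 weeks and 0.18 at 7 weeks. Of 5 TRPV genes, 3 were below 0 at 7 weeks.

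Genes with low levels were more variable. The 17 channel genes with a mean of at least 5 CPM had a median coefficient of variation of 19.8% in Control, 35.8% in IDPN3w and 15.9% in IDPN7w. For the 39 below 5 CPM it was 66.6%, 94.9% and 53.0%. The IDPN3w animals were the most variable in both classes, and 2 of these 3 libraries belong to the set with fewer genes. Among the 17, the log2 fold changes had a median of -0.37 for IDPN3w and -0.23 for IDPN7w, with unadjusted p under 0.05 for 7 in each comparison, and 2 were called lower at 7 weeks. Among the 34 tested genes below 5 CPM it was -0.08 and -0.03, with 3 and 5 genes under 0.05. The shares of all genes at similar levels were not computed, and higher counts make a small p easier to reach. Nothing particular to the channels is read from these counts. Holding genes without counts in a group at their bound touched at most 2 of the 51 in a comparison. These stayed on the same side of the median, so the medians could not move and nothing is read from that.

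Some genes whose products bind these channels were called lower, in lists drawn up with earlier results of these data known. Their counts are to be read against the 1.21% and 3.13% of all genes called lower at 3 and 7 weeks, and nothing particular to the lists is read from them. Of 17 tested entries for calcium channel partners, 2 were called lower at 3 weeks and 4 at 7 weeks, with none higher and medians of -0.41 and -0.59. Cacna1d, the pore subunit of the hair cell synapse left out of the rule, was at 103, 129.6 and 87.5 CPM in Control, 42.5, 37.7 and 36.2 in IDPN3w and 45.99, 53.5 and 60.2 in IDPN7w, with log2 fold changes of -1.46 (SE 0.165, adjusted p = 0.00251) and -1.003 (SE 0.162, adjusted p = 0.00574, edgeR). Rem2, a small GTPase that inhibits calcium channels, was called at both times (-1.16, SE 0.213, and -1.43, SE 0.214), and Cabp2, a calcium-binding protein of hair cells, at 7 weeks (-0.67, SE 0.114). Calm2, one of the calmodulin genes, is present as 2 entries with near-identical sequence, of which one was called lower at 7 weeks (-0.75, SE 0.0840), and is uncertain for that reason.

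Of 10 tested sodium channel partners, 2 were called lower at 3 weeks and 1 at 7 weeks. Cntn1, the adhesion protein contactin that binds sodium channels at nodes, fell at both times (-0.71, SE 0.111, and -1.11, SE 0.111). Ank3, which anchors sodium channels in axons, fell at 3 weeks (-1.06, SE 0.200, adjusted p = 0.0284) from 97.7 to 103 CPM in Control to 31.8 to 62.5 CPM. Of 5 tested HCN partners, Pex5l, an auxiliary protein that controls HCN traffic, fell at 7 weeks (-1.30, SE 0.219, adjusted p = 0.00691), and Flna, filamin, rose (0.95, SE 0.236, adjusted p = 0.0432). Pex5l was at 12.2 to 14.3 CPM in Control and 4.69 to 5.62 in IDPN7w. Of 12 neuron markers tested, 2 (Snap25 and Map2) were called lower at 3 weeks and 0 higher. The log2 fold change was below 0 for 7 of the 12 and above for 5. At 7 weeks Snap25 was called lower and Uchl1 higher, with 9 below 0 and 3 above. Of all genes, 1.21% and 3.13% were called lower at 3 and 7 weeks, and 0.438% and 2.00% higher. The part of the neuron markers in the values above was not tested.

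**Figure D5:**
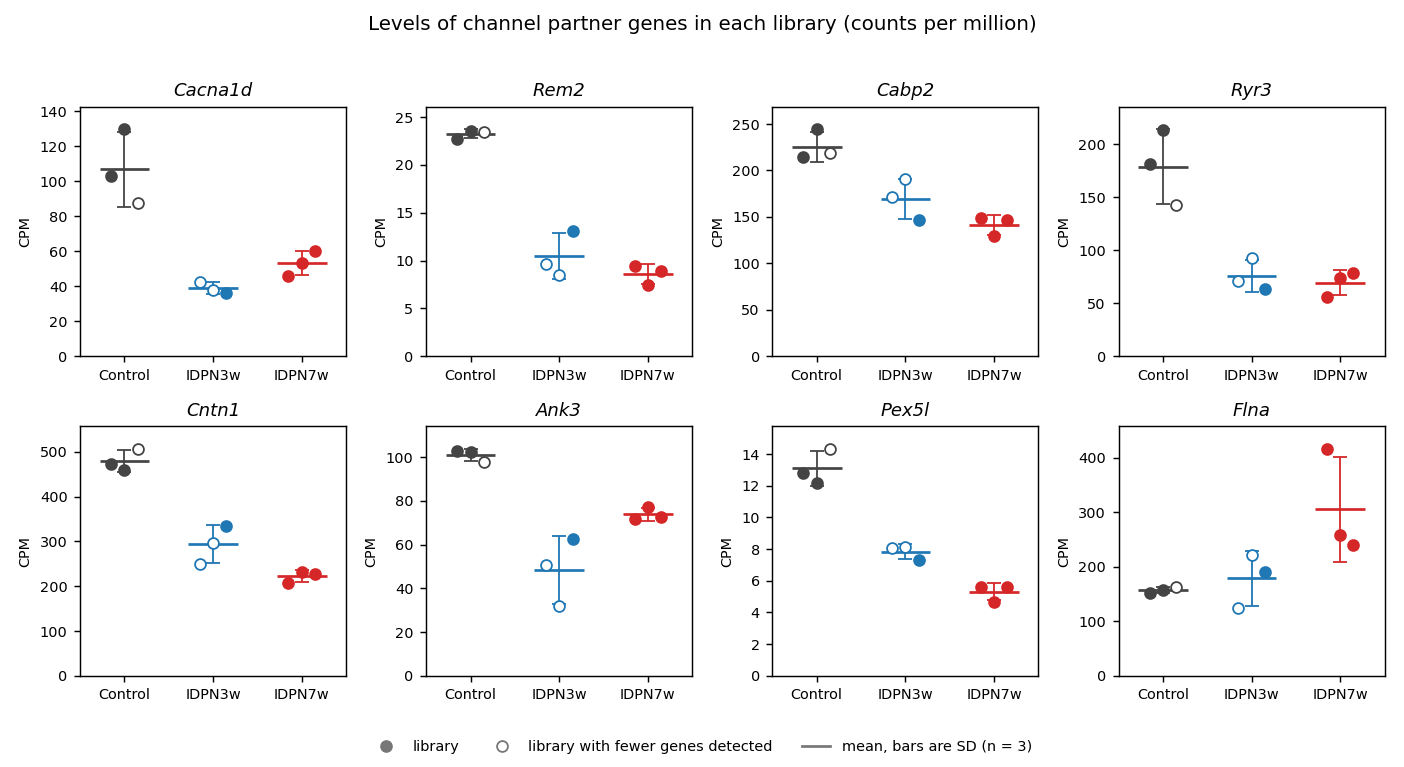
Level in CPM (vertical axis, linear from 0) of 8 genes of the partner lists in each library by group, with the mean and SD (n = 3) and open points for libraries with fewer genes detected. Cacna1d, Rem2, Cabp2, Ryr3, Cntn1, Ank3 and Pex5l are lower in all treated animals than in any control, and Flna is higher in all IDPN7w animals.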

How the data were processed

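Libraries were made by a SMARTseq2 protocol with oligo-dT priming and without molecular identifiers. The authors mapped reads to the rat genome Rnor6.0 with STAR 2.5.3a and estimated gene counts with RSEM (1.3.0 in the submitters' notes), using annotation Rnor6.0.92. The authors deposited estimated counts, which were rounded to whole numbers before the fit, and strand is not given in the sources used here. Counts were normalised by TMM and tested with the edgeR 4.0.16 quasi-likelihood test (robust, R 4.3.3) in one fit over 9 libraries, after its default filter on low counts, with Benjamini-Hochberg adjustment over 15517 genes. Calls needed an adjusted p below 0.05 together with a change of more than 1.5-fold. SEs are the log2 fold change over the root of F. DESeq2 1.42.0 (the authors' tool, in an earlier version), other scalings, filters, library sets and leaving out each library were alternatives. Code was tested on simulated data.

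Totals were 31100118 to 46018385 counts. A count of 0 allows up to 3 counts (0.0611 to 0.101 CPM). Intervals from counts are exact, at 95%, and cover counting error only. Each library is 1 animal. With 3 against 3, an exact permutation test cannot go below p = 0.1, so tests of single genes use the fit across genes. No 2 libraries of a group were duplicates. The libraries carry 1 batch label. Named genes are those called, those with an unadjusted p under 0.05 in any comparison and the 2 with the highest mean of each family, with others given by range; the values of some genes are not reported here. The members and lists were chosen with earlier results of these data known. RefSeq (GRCr8) gave promoters and neighbouring genes only, and matched all 56 symbols. Besides the overlaps named above, Cacna1h, Trpc4ap, Trpc5, Trpm8, Trpv2 and Trpv3 overlap another protein-coding gene there, with the same uncertainty. No per-length comparison of levels was made.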

Additional observations from a re-analysis of the deposited data

How the results depend on the processing

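The counts of called channel genes depended on the processing. At 3 weeks, 0 were called in the edgeR fit, 6 by DESeq2, 7 by DESeq2 with no fold change threshold, 2 (Cacna1e and Trpm3) without the 3 libraries with fewer genes detected, which leaves 1 IDPN3w library that is assumed to vary like the other groups, and 0 to 1 on leaving out each library (Trpm7 without Control replicate 3, Cacna1e without IDPN3w replicate 1 and Cacnb3 without IDPN3w replicate 3). At 7 weeks, 3 became 6 by DESeq2 with or without the fold change threshold, 6 in a fit of the 2 groups alone (adding Cacna1e, Cacng4 and Trpm4), 9 without the 3 libraries and 0 to 5 on leaving out each library. From 3 to 7 weeks, 0 became 2 (one of them Trpv1) by DESeq2 with or without the threshold and 0 to 1 on leaving out each library, with 1 called without IDPN3w replicate 3. The fits without the 3 libraries and by DESeq2 with no fold change threshold were chosen after seeing the data, and the causes were not tested. Size factors by relative log expression, no filter, a filter of at least 10 counts in every library, no fold change threshold in edgeR, a fold change above 2 and the library set as a covariate kept every count within 1.5 times, the last with 4 calls at 7 weeks (Trpv4 added). Under the filter of 10 counts the calls at 7 weeks were Cacna2d1, Scn7a and Trpv1. The median log2 fold change at 3 weeks, -0.11, ranged from -0.44 without the 3 libraries to 0.14 with at least 10 counts in every library, and its sign is not fixed. Of 34 named differences, 2 changed sign under an alternative: Scn7a from 3 to 7 weeks was 0.16 without IDPN3w replicate 2 and 0.19 without IDPN7w replicate 1 (-0.36 to 0.19 on leaving out each library), and Hcn2 from 3 to 7 weeks was 0.41 without the 3 libraries, from that 1 IDPN3w library. Cacna2d1 at 7 weeks ranged from -2.13 to -1.51 and Scn7a from -1.67 to -1.13, with the call lost in 3 and 7 alternatives. No paired analysis was possible because the labels give no replicate numbers and the groups share too few animal codes: the first part of the code is shared between groups by only 1 IDPN3w and 1 IDPN7w library, and by no Control library with a treated one. Depth limits what can be read from genes under 5 CPM.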

Other observations

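Other cation channels were read from the same libraries. Of 7 genes for the epithelial sodium channel and acid-sensing channels, Scnn1a, the alpha subunit of the epithelial sodium channel, was called higher at 7 weeks (log2 fold change 1.80, SE 0.438, adjusted p = 0.0383, edgeR). Its mean level was 1.95 CPM in Control, 2.40 in IDPN3w and 6.79 in IDPN7w. The other 6 were not called. Among 11 genes of intracellular calcium release and store-operated entry, Ryr3, a calcium release channel of the endoplasmic reticulum, was called lower at 3 weeks (-1.24, SE 0.195, adjusted p = 0.0128) and at 7 weeks (-1.37, SE 0.195, adjusted p = 0.00307), from a mean of 179 CPM in Control to 75.8 and 69.5. None of the 13 tested genes of the remaining related cation channels was called in any comparison (edgeR), with unadjusted p under 0.05 for 3, 2 and 3 of them at 3 weeks, at 7 weeks and between the times.

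Some markers of other cells were also called. Of all genes, 1.21% were called lower and 0.438% higher at 3 weeks, and 3.13% lower and 2.00% higher at 7 weeks. Of 14 supporting cell markers, 1 (Otogl) was called lower at 3 weeks and 5 at 7 weeks, among them Otog and Tectb, which encode proteins of the membranes over the sensory epithelium. Gjb6, a connexin, was also lower at 7 weeks than at 3 weeks (-0.69, SE 0.120, adjusted p = 0.0426, edgeR). Of 10 dark cell and melanocyte markers, 4 were called lower at 7 weeks (among them Kcnj10, Kcnq1 and Slc12a2, genes of potassium transport), and Bsnd, a chloride channel subunit, was called higher at 3 weeks. Among 8 fibroblast markers, Lum was lower at 7 weeks, and among 8 endothelium and pericyte markers Flt1 and Kcnj8 were lower and Cdh5 higher. Of 2 tested red blood cell markers, 0 were called (edgeR), with unadjusted p under 0.05 for 1 at 3 weeks and 0 at 7 weeks.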
